A study of Homo sapiens with 6 samples.

Results

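DNA replication and mitosis genes are a set of 39 genes, among 23340 gene symbols kept from the deposited tables, whose products copy the chromosomes, separate them and divide the cell. The members were given as a list of symbols, and all 39 were found and passed the filter on low values. For the comparison of both phases they were split into 14 replication genes (the MCM subunits, CDC6, CDT1, GINS2, PCNA, FEN1, RRM2, TYMS and CCNE2) and 25 mitosis genes (all other members). RNA was sequenced as 50-bp paired-end reads of 3 human cell lines, giving 2 libraries for each and 6 in all. The groups were IFN-γ-treated HT-29 colon adenocarcinoma cells, MDA-MB-436 breast adenocarcinoma cells and MCF10A mammary epithelial cells, an established line that is not tumorigenic. HT-29 cells received IFN-γ at 200 U/ml over 24 h in McCoy's 5A with 10% FBS. None of the 6 libraries is labelled as untreated HT-29 cells. MDA-MB-436 cells grew in L-15 with 10% FBS and no added CO2. MCF10A cells grew in DMEM/F12 with 5% horse serum, EGF (20 ng/ml), hydrocortisone (500 ng/ml), cholera toxin (100 ng/ml) and insulin (10 µg/ml). Line, tissue, medium and IFN-γ therefore differ together between the groups and cannot be told apart.

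Replication begins when ORC, CDC6 and CDT1 load the ring-shaped MCM helicase on origins in G1, and the GINS complex helps turn that ring into a working helicase in S phase. Mitosis is driven by CDK1 with its cyclins, by the Aurora and Polo kinases and by spindle motors, and ends once the anaphase-promoting complex marks cyclin B for destruction. Genes of the first kind are classical targets of E2F factors, which RB1 restrains, whereas many genes of the second kind carry CCAAT boxes and a cell cycle genes homology region (CHR) through which DREAM, B-MYB and FOXM1 act. In bulk RNA a lower level can mean fewer cycling cells or less RNA per cycling cell, and these cannot be told apart.

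The labels of the colon and the breast carcinoma libraries went against their marker genes. KRT20, an intestinal keratin, had 0 and 0.547 in the HT-29/IFN-γ-labelled libraries, 29899.7 and 30879.7 in the MDA-MB-436-labelled libraries and 0 and 1.47 in MCF10A (normalised counts, the library labelled 25M reads first and the deeper one second, here and below). VIL1, the brush-border protein villin, had 0 and 0 in the HT-29/IFN-γ-labelled libraries, 2055 and 2198 in the MDA-MB-436-labelled libraries and 0 and 0 in MCF10A. VIM, the mesenchymal filament protein vimentin, had 36599 and 35267 in the HT-29/IFN-γ-labelled libraries, 16.5 and 7.39 in the MDA-MB-436-labelled libraries and 25901 and 26246 in MCF10A. The intestinal markers were thus high in the MDA-MB-436-labelled libraries and near 0 in those labelled HT-29 with IFN-γ. All 8 intestinal markers had reads in both MDA-MB-436-labelled libraries, where they summed to 80030 and 83518, against 2 and 6 of 8 and sums of 4.50 and 8.21 in the HT-29/IFN-γ-labelled libraries, where VIL1 and CDX2 were at 0. The 8 mesenchymal markers summed to 69342 and 67525 in the HT-29/IFN-γ-labelled libraries, 222 and 188 in the MDA-MB-436-labelled libraries and 30510 and 30890 in MCF10A. Basal mammary markers (KRT5, KRT14 and others) were highest in MCF10A, with sums of 860577 and 843529. The HT-29/IFN-γ and MDA-MB-436 labels may have been exchanged, which was not tested. Libraries stayed in their labelled groups for all results. Each result therefore belongs to a label and may not belong to the cell line which that label names.

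Reads assigned to the kept symbols numbered 18.4 and 50.1 M in the HT-29/IFN-γ-labelled libraries, 16.7 and 56.3 M in the MDA-MB-436-labelled libraries and 18.3 and 69.4 M in MCF10A. The labels do not state whether a line's 2 libraries are separate cultures, so every p here measures spread among libraries that may be technical. A gene differed where limma gave a Benjamini-Hochberg adjusted p below 0.05 over 15638 genes and the fold change was at least 2. By that rule 46.5% of all genes differed between the HT-29/IFN-γ-labelled libraries and MCF10A, 49.2% between the MDA-MB-436-labelled libraries and MCF10A, and 53.4% between the HT-29/IFN-γ-labelled and MDA-MB-436-labelled libraries. The median gene sat at a log2 fold change of 0.13, 0 and 0.09 in these comparisons. Both comparisons with MCF10A share its 2 libraries.

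Promoter letters are shown because the replication and the mitosis genes differ in them. RefSeq's promoter table (GRCh38.p14, 250 bases before to 50 after each start) held 31 of the 39 members, 11 replication and 20 mitosis genes. Both strands were searched for the CHR forms TTTGAA and TTTAAA, for CCAAT, and for 4 forms of the E2F site, TTTGGCGC, TTTCCCGC, TTTGGCGG and TTTCCCGG. TTTAAA reads the same on both strands. Capitals in the sequences mark these letters on either strand, so CCAAT on the opposite strand reads ATTGG and TTTCCCGC reads GCGGGAAA. The 150 bases before the start are printed 5′ to 3′ for 3 mitosis genes and then 3 replication genes whose levels differed in the comparisons below.
CDC20, chr1:43358831-43358980, plus strand: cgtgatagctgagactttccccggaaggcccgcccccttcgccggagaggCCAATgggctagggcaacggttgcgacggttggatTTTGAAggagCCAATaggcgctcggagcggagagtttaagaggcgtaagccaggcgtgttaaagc
KIF20A, chr5:138178962-138179111, plus strand: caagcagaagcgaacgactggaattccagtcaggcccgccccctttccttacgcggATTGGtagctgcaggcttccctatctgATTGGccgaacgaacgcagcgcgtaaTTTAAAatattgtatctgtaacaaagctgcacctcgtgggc
MKI67, chr10:128126424-128126573, minus strand: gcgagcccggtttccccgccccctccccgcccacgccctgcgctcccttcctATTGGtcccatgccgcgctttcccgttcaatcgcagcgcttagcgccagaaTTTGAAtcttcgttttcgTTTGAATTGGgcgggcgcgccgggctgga
PCNA, chr20:5126623-5126772, minus strand: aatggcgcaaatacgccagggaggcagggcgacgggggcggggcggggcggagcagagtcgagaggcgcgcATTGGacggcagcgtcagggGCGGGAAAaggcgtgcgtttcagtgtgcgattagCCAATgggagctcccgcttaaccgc
CDC6, chr17:40287729-40287878, plus strand: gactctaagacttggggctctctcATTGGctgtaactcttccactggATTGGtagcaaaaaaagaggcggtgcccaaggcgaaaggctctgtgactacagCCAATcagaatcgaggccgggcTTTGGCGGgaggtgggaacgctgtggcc
GINS2, chr16:85688955-85689104, minus strand: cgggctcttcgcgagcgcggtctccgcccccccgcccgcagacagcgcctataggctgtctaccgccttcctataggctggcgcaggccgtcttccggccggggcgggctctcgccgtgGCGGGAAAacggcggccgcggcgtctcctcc
The 3 mitosis promoters hold a CHR form downstream of a CCAAT on one strand or the other, and in MKI67 a TTTGAA shares letters with an opposite-strand CCAAT. The 3 replication promoters hold an E2F form and no CHR form. A gene counted if any of its promoters held a match. Over all members in the table, a CHR form was found in 17 of 20 mitosis genes (85%) and 1 of 11 replication genes (RRM2, 9.09%), beside 27.9% of 27305 genes. An E2F form was found in 3 of 20 mitosis genes (CENPA, KIF11 and NUSAP1, 15%) and 8 of 11 replication genes (72.7%), beside 5.21% of all genes there. CCAAT was found in 17 of 20 mitosis genes (85%) and 7 of 11 replication genes (63.6%), beside 39.7% of all genes there. A match in these letters is a description and not a bound site.

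Most members were lower in the MDA-MB-436-labelled libraries than in MCF10A, with the replication genes further down than the mitosis genes. Of the 39 members 14 fell and 1 rose (35.9% and 2.56%), beside 23.7% and 25.6% of all genes. Among replication genes 9 of 14 fell (64.3%) and CDC6 rose (7.14%), with a median log2 fold change of -1.17. Among mitosis genes 5 of 25 fell (20%) and 0 rose, with a median of -0.58, beside 0 for all genes. The share of mitosis genes that fell was thus no higher than the 23.7% of all genes. The median of the mitosis genes thus lay 0.59 above that of the replication genes on the log2 scale. The size of the gap depended on the statistic. Gaps of means differed less between these lines, at 0.780 and 0.729 in the MDA-MB-436-labelled libraries and 0.383 and 0.365 in MCF10A. No test was made of either gap, since genes are not replicates.

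Between the HT-29/IFN-γ-labelled libraries and MCF10A fewer members differed, and the gap between the group medians had the other sign. Of the 39 members 5 fell and 0 rose (12.8% and 0%), beside 18.1% and 28.4% of all genes. The median log2 fold change was -0.33 in replication genes, 2 of 14 of which fell (14.3%). It was -0.54 in mitosis genes, 3 of 25 of which fell (12%). The gap of -0.20 for mitosis minus replication was -0.10 without CCNE2, CCNA2, TOP2A and MKI67, which act across phases or mark cycling at large. The sign held for medians only, since gaps of means, given below for each library, overlapped between these 2 lines and averaged slightly higher in the HT-29/IFN-γ-labelled libraries. The calls of members in this comparison depended on the scaling. With library size alone as the scale, the median of all genes moved by 0.31 to 0.44, RRM2 (1.13), NUSAP1 (1.10) and KIF4A (1.07) rose and only PCNA fell, a split of 3 higher and 1 lower in place of 0 and 5 (among all genes 5445 and 1989 in place of 4442 and 2823).

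In the HT-29/IFN-γ-labelled against the MDA-MB-436-labelled libraries 10 of 39 members rose and MKI67 fell (25.6% and 2.56%), beside 29.9% and 23.5% of all genes. Replication genes had a median log2 fold change of 0.54, with 5 of 14 higher (35.7%). Mitosis genes had a median of 0.33, with 5 of 25 higher (20%) and 1 lower (4%), beside 0.09 for all genes. The gap of medians, -0.22, was -0.021 without CCNE2, CCNA2, TOP2A and MKI67. Gaps of means differed more, at 0.365 and 0.423 in the HT-29/IFN-γ-labelled and 0.780 and 0.729 in the MDA-MB-436-labelled libraries. Library-size scaling moved the median of all genes by 0.34 to 0.43 and gave 14 members higher and 0 lower, with TYMS, BUB1, AURKB and NUSAP1 added and MKI67 lost (among all genes 5692 and 2797 in place of 4675 and 3675).

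**Figure D1:**
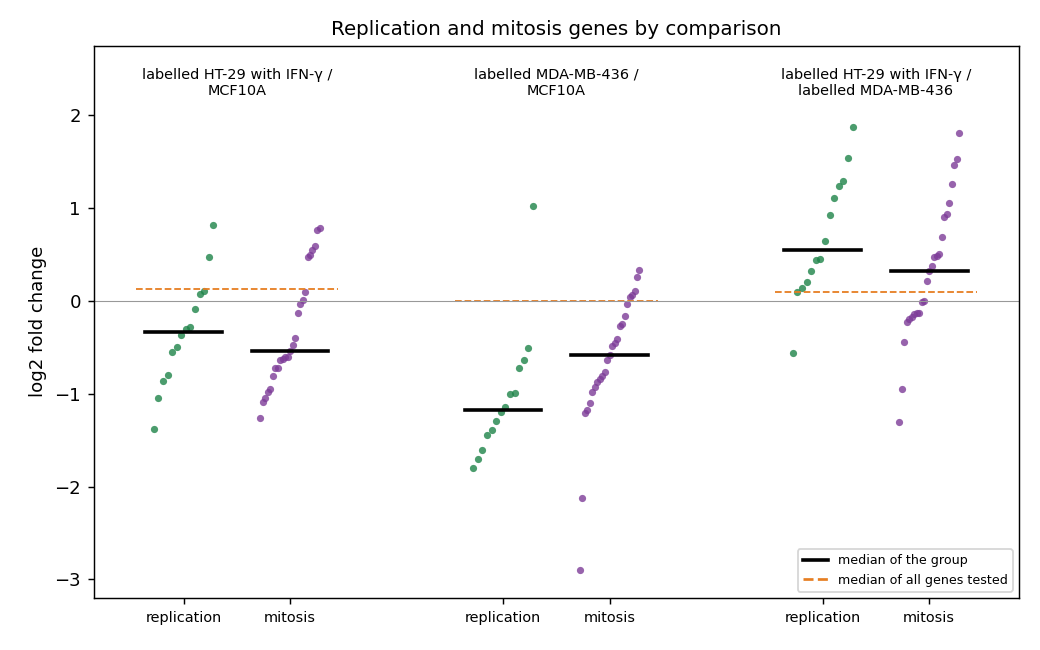
Log2 fold change of each replication gene (green) and mitosis gene (purple) in the 3 comparisons, on the log2(normalised count + 1) scale, with the median of each group (black bar) and of all genes tested (dashed). In the MDA-MB-436-labelled libraries against MCF10A the replication median is -1.17 and the mitosis median -0.58, whereas in the HT-29/IFN-γ-labelled libraries against MCF10A they are -0.33 and -0.54.

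The mean log2 normalised count of the mitosis genes exceeded that of the replication genes by 0.365 and 0.423 in the HT-29/IFN-γ-labelled libraries, by 0.780 and 0.729 in the MDA-MB-436-labelled libraries and by 0.383 and 0.365 in MCF10A. The MDA-MB-436-labelled libraries stood apart, and the other 4 libraries overlapped. Summed counts per M reads (CPM) of the replication genes were 2673 and 2646 in the HT-29/IFN-γ-labelled libraries, 1307 and 1340 in the MDA-MB-436-labelled libraries and 2500 and 2521 in MCF10A. Those of the mitosis genes were 4728 and 4826 in the HT-29/IFN-γ-labelled libraries, 3360 and 3309 in the MDA-MB-436-labelled libraries and 5050 and 5074 in MCF10A. On this scale, which divides by library size alone, both sums were lowest in the MDA-MB-436-labelled libraries. The lowest mean of the 3 lines fell to the MDA-MB-436-labelled libraries for 13 of 14 replication genes (92.9%) and 12 of 25 mitosis genes (48%), beside 37.6% of all genes. With library-size scaling the same counts were 13 of 14 and 19 of 25, beside 42.1% of all genes.

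**Figure D2:**
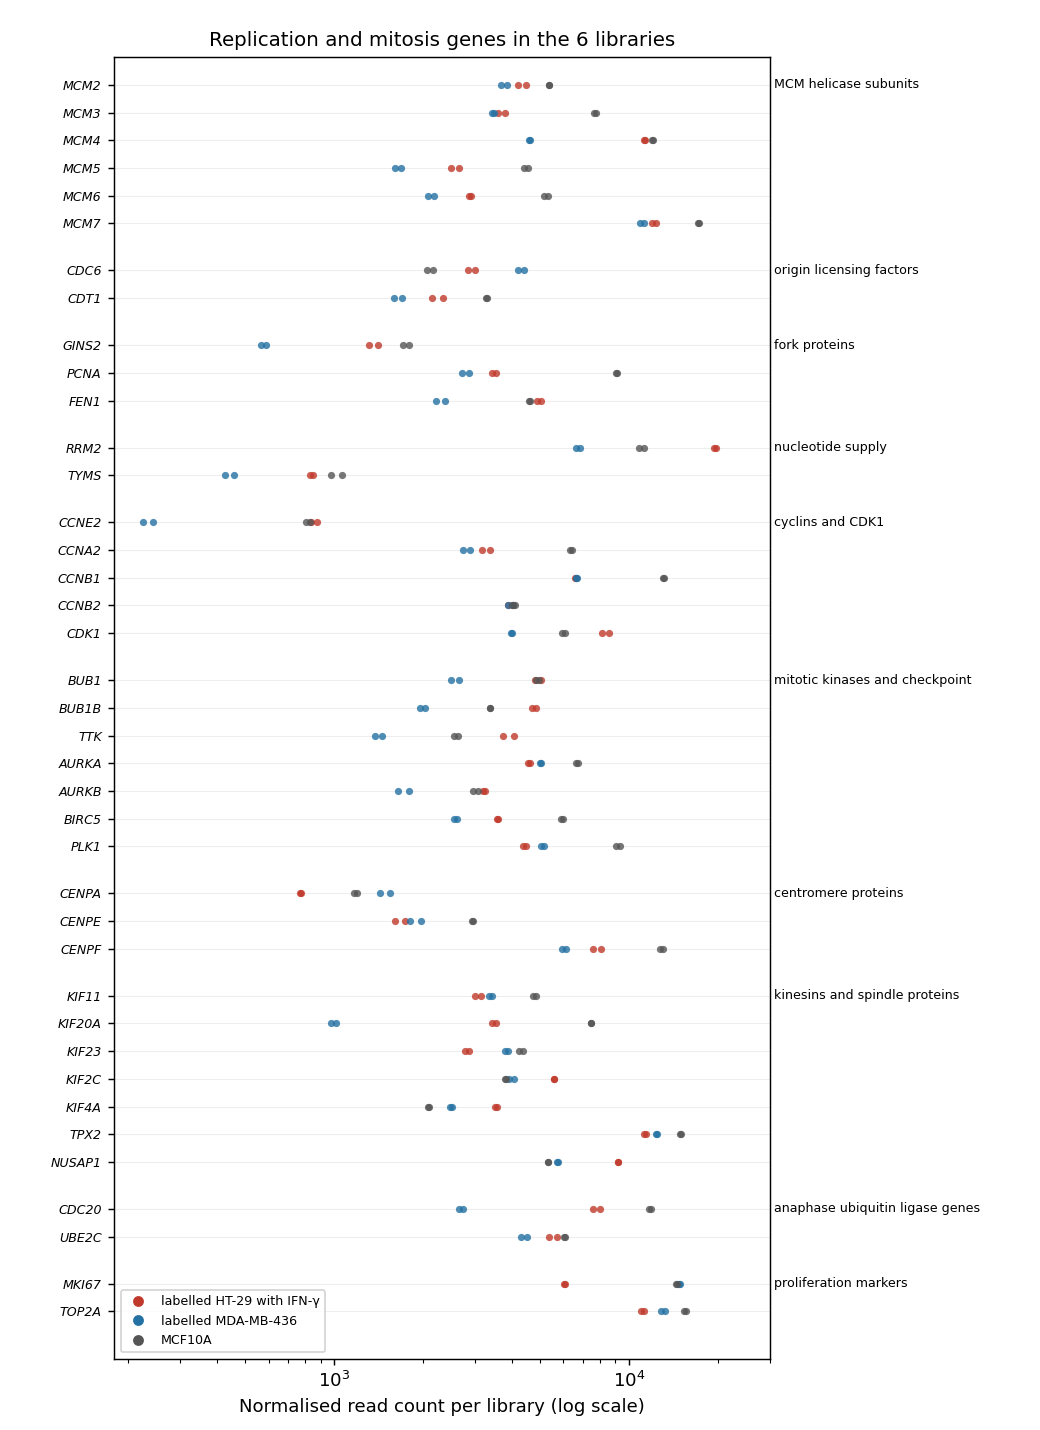
Normalised read count (log axis) of the 39 members in each of the 6 libraries, ordered by role, with red for the HT-29/IFN-γ-labelled libraries, blue for the MDA-MB-436-labelled libraries and grey for MCF10A. Libraries of a line lie close together, and the blue points are leftmost in every MCM, fork and nucleotide-supply gene.

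The helicase subunits MCM2 to MCM7 form 1 ring, and all 6 were lowest in the MDA-MB-436-labelled libraries and highest in MCF10A by the deposited scaling. With library-size scaling MCM2 and MCM4 were highest in the HT-29/IFN-γ-labelled libraries, at log2 fold changes against MCF10A of 0.0095 and 0.22. MCM5 had 2651 and 2497 in the HT-29/IFN-γ-labelled libraries, 1616 and 1683 in the MDA-MB-436-labelled libraries and 4541 and 4407 in MCF10A. It fell 2.71-fold in the MDA-MB-436-labelled libraries against MCF10A (log2 fold change -1.44, SE 0.0407, adjusted p = 1.45e-08). MCM4 had 11333 and 11258 in the HT-29/IFN-γ-labelled libraries, 4572 and 4629 in the MDA-MB-436-labelled libraries and 12031 and 12016 in MCF10A. Its HT-29/IFN-γ-labelled and MCF10A libraries were close, and the MDA-MB-436-labelled libraries were far below both. MCM4 fell in the MDA-MB-436-labelled libraries against MCF10A (log2 fold change -1.39, SE 0.0222, adjusted p = 8.37e-10) and rose in the HT-29/IFN-γ-labelled against the MDA-MB-436-labelled libraries (log2 fold change 1.30), while its difference between the HT-29/IFN-γ-labelled libraries and MCF10A was -0.09. MCM6 had 2910.2 and 2863 in the HT-29/IFN-γ-labelled libraries, 2178 and 2077 in the MDA-MB-436-labelled libraries and 5140.2 and 5331 in MCF10A. It fell in the MDA-MB-436-labelled libraries against MCF10A (log2 fold change -1.30, SE 0.0354, adjusted p = 1.19e-08).

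MCM3 fell in both comparisons with MCF10A. It had 3797 and 3595 in the HT-29/IFN-γ-labelled libraries, 3438 and 3492 in the MDA-MB-436-labelled libraries and 7713 and 7599.5 in MCF10A. Its log2 fold change was -1.05 in the HT-29/IFN-γ-labelled libraries (SE 0.0328, adjusted p = 3.42e-08) and -1.14 in the MDA-MB-436-labelled libraries (SE 0.0328, adjusted p = 1.57e-08), and the first was -0.74 with library-size scaling and then under the fold minimum. The call in the HT-29/IFN-γ-labelled libraries was also lost when limma tested against a fold of 2. MCM2 and MCM7 passed in no comparison. MCM2 averaged 4349 ± 205 normalised counts in the HT-29/IFN-γ-labelled libraries, 3770.3 ± 129 in the MDA-MB-436-labelled libraries and 5356 ± 19.5 in MCF10A (SD, n = 2 libraries here and below). MCM7 averaged 12176 ± 272 in the HT-29/IFN-γ-labelled libraries, 11060.0 ± 275 in the MDA-MB-436-labelled libraries and 17218 ± 82.3 in MCF10A. By the deposited scaling all 6 subunits were thus lower than in MCF10A in both comparisons, by unequal amounts. The log2 fold changes ran from -1.05 to -0.09 in the HT-29/IFN-γ-labelled libraries and from -1.44 to -0.51 in the MDA-MB-436-labelled libraries.

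Per transcript length the subunits were far from equal in every line. MCM7 had 155 ± 2.66 RPKM in the HT-29/IFN-γ-labelled libraries, 112 ± 2.06 in the MDA-MB-436-labelled libraries and 177 ± 0.442 in MCF10A. MCM6 had 28 ± 0.178 RPKM in the HT-29/IFN-γ-labelled libraries, 16.5 ± 0.658 in the MDA-MB-436-labelled libraries and 41 ± 1.15 in MCF10A. MCM7 overlaps AP4M1 and MCM2 overlaps TPRA1, each on the opposite strand. Reads of either pair cannot be told apart where strand was not counted, which adds uncertainty to the differences among subunits. RPKM divides by library size and not by the authors' factor, so MCM4 averaged 84.7 ± 0.0503 RPKM in the HT-29/IFN-γ-labelled libraries and 72.7 ± 0.0991 in MCF10A, the reverse of its normalised counts.

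**Figure D3:**
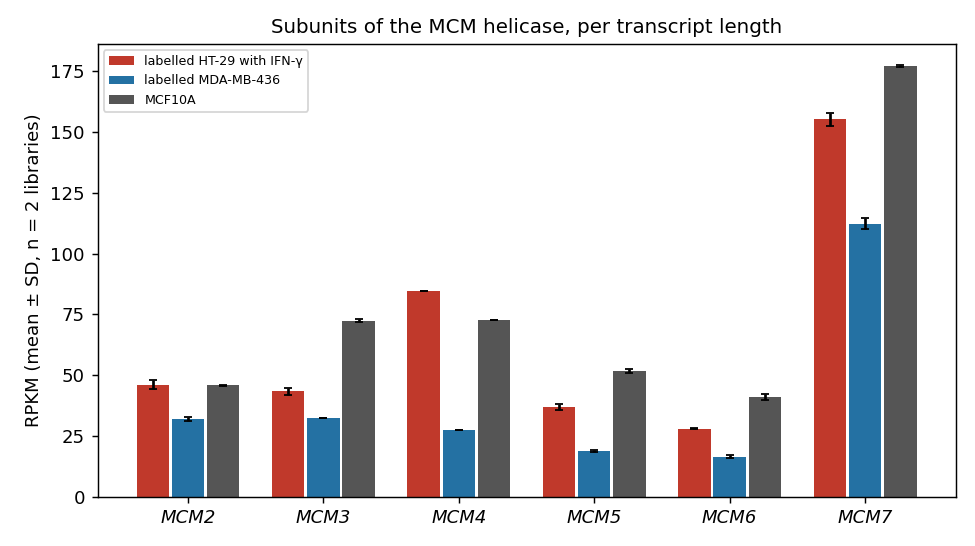
Mean RPKM (bars, with SD over 2 libraries) of the 6 MCM subunits in the HT-29/IFN-γ-labelled (red) and MDA-MB-436-labelled (blue) libraries and MCF10A (grey). MCM7 is the highest subunit in each line, at 155, 112 and 177 RPKM.

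CDC6 and CDT1, which load the MCM ring, ordered the lines in opposite ways. CDC6 had 3000.2 and 2855 in the HT-29/IFN-γ-labelled libraries, 4198 and 4419.8 in the MDA-MB-436-labelled libraries and 2069 and 2163 in MCF10A. It was the only replication gene highest in the MDA-MB-436-labelled libraries, at 2.04-fold the MCF10A level (log2 fold change 1.03, SE 0.0418, adjusted p = 1.15e-07). This call lay at the fold minimum and was lost with TMM scaling (0.93), edgeR (0.96) and voom (0.96), and without the deeper MDA-MB-436-labelled library (0.99) or the 25M MCF10A library (0.99). It was also lost when limma tested against a fold of 2. CDT1 averaged 2248 ± 144 normalised counts in the HT-29/IFN-γ-labelled libraries, 1647 ± 70.2 in the MDA-MB-436-labelled libraries and 3284 ± 9.81 in MCF10A, and its log2 fold change of -0.996 in the MDA-MB-436-labelled libraries against MCF10A was just under the fold minimum. CDT1 passed it with TMM scaling (-1.10), library-size scaling (-1.01), edgeR (-1.04), voom (-1.04) and without the deeper MDA-MB-436-labelled library (-1.04).

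The 3 fork proteins all fell in the MDA-MB-436-labelled libraries against MCF10A. PCNA, the sliding clamp that holds polymerases on DNA, had 3428 and 3548 in the HT-29/IFN-γ-labelled libraries, 2709 and 2862 in the MDA-MB-436-labelled libraries and 9091 and 9027 in MCF10A. No library outside MCF10A came near the MCF10A pair. PCNA fell 2.6-fold in the HT-29/IFN-γ-labelled libraries against MCF10A (log2 fold change -1.38, SE 0.0346, adjusted p = 1.17e-08) and 3.25-fold in the MDA-MB-436-labelled libraries against MCF10A (log2 fold change -1.70, SE 0.0346, adjusted p = 2.7e-09). It was the only member that differed from MCF10A in the HT-29/IFN-γ-labelled libraries with the deposited scaling and in all 20 alternative fits. PCNA has a pseudogene listed in the tables, PCNAP1, with which reads may be shared.

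GINS2, a subunit of the GINS complex, had 1415 and 1312 in the HT-29/IFN-γ-labelled libraries, 566 and 586 in the MDA-MB-436-labelled libraries and 1715 and 1797 in MCF10A. The MDA-MB-436-labelled libraries were far below the other 4. GINS2 fell 3.04-fold in them against MCF10A (log2 fold change -1.61, SE 0.0525, adjusted p = 3.23e-08) and rose in the HT-29/IFN-γ-labelled against the MDA-MB-436-labelled libraries (log2 fold change 1.24, SE 0.0525, adjusted p = 1.39e-07). FEN1, the flap nuclease that trims Okazaki fragments, had 5029.8 and 4885 in the HT-29/IFN-γ-labelled libraries, 2211 and 2383 in the MDA-MB-436-labelled libraries and 4573 and 4612 in MCF10A. It rose 2.16-fold in the HT-29/IFN-γ-labelled against the MDA-MB-436-labelled libraries (log2 fold change 1.11, SE 0.0397, adjusted p = 5.21e-08). Against MCF10A its log2 fold change in the MDA-MB-436-labelled libraries was -1.0002, which fell short of the minimum with DESeq2 (-0.98), without the 25M MDA-MB-436-labelled library (-0.95) or without the deeper MCF10A library (-0.99). That call was also lost when limma tested against a fold of 2.

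Of the nucleotide-supply genes, RRM2, the small subunit of ribonucleotide reductase, had 19387 and 19667 in the HT-29/IFN-γ-labelled libraries, 6612 and 6825 in the MDA-MB-436-labelled libraries and 10861 and 11266 in MCF10A. All 3 lines were separate, the HT-29/IFN-γ-labelled libraries highest. RRM2 rose 2.91-fold in them against the MDA-MB-436-labelled libraries (log2 fold change 1.54, SE 0.0281, adjusted p = 1.54e-09). TYMS, thymidylate synthase, had 831 and 846 in the HT-29/IFN-γ-labelled libraries, 426 and 459 in the MDA-MB-436-labelled libraries and 977 and 1061 in MCF10A. It fell in the MDA-MB-436-labelled libraries against MCF10A (log2 fold change -1.20, SE 0.0628, adjusted p = 5.05e-07). Reads of TYMS and the opposite-strand ENOSF1 cannot be told apart where strand was not counted.

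CCNE2, cyclin E2 of the G1 to S transition, moved furthest among the replication genes. It had 836 and 874 in the HT-29/IFN-γ-labelled libraries, 243 and 224 in the MDA-MB-436-labelled libraries and 826 and 801 in MCF10A. The HT-29/IFN-γ-labelled and MCF10A libraries were close together, and the MDA-MB-436-labelled libraries lay below them. CCNE2 fell 3.47-fold in the MDA-MB-436-labelled libraries against MCF10A (log2 fold change -1.80, SE 0.0647, adjusted p = 5.62e-08) and rose 3.65-fold in the HT-29/IFN-γ-labelled against the MDA-MB-436-labelled libraries (log2 fold change 1.87, SE 0.0647, adjusted p = 4.37e-08).

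The mitotic cyclins did not follow 1 pattern. CCNA2, cyclin A2, had 3179 and 3375 in the HT-29/IFN-γ-labelled libraries, 2897 and 2735 in the MDA-MB-436-labelled libraries and 6296 and 6397 in MCF10A, and it fell in the MDA-MB-436-labelled libraries against MCF10A (log2 fold change -1.17, SE 0.0407, adjusted p = 4.51e-08). In the HT-29/IFN-γ-labelled libraries against MCF10A its log2 fold change of -0.95 was just under the fold minimum. CCNA2 passed there with TMM scaling (-1.09), edgeR (-1.03) and voom (-1.03). CCNB1, cyclin B1, averaged 6599 ± 50.3 normalised counts in the HT-29/IFN-γ-labelled libraries, 6635 ± 32.7 in the MDA-MB-436-labelled libraries and 13069.7 ± 56.8 in MCF10A, with log2 fold changes against MCF10A of -0.99 and -0.98 that were just under the fold minimum by the deposited scaling. Both passed it with TMM scaling (-1.12 and -1.08), edgeR (-1.07 and -1.04) and voom (-1.07 and -1.04). CCNB2, cyclin B2, averaged 3972 ± 116 in the HT-29/IFN-γ-labelled libraries, 3962 ± 115 in the MDA-MB-436-labelled libraries and 4056 ± 61.6 in MCF10A. It was the only member whose libraries overlapped in all 3 comparisons by the deposited scaling. CDK1, the kinase that drives entry into mitosis, had 8088 and 8576 in the HT-29/IFN-γ-labelled libraries, 3988 and 4017 in the MDA-MB-436-labelled libraries and 5942 and 6062 in MCF10A. It rose 2.08-fold in the HT-29/IFN-γ-labelled against the MDA-MB-436-labelled libraries (log2 fold change 1.06, SE 0.0329, adjusted p = 2.39e-08), a call lost when limma tested against a fold of 2.

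Among the checkpoint kinases, TTK (MPS1), which starts spindle checkpoint signalling, had 3755 and 4082 in the HT-29/IFN-γ-labelled libraries, 1455 and 1378 in the MDA-MB-436-labelled libraries and 2559.8 and 2635 in MCF10A. BUB1B (BUBR1), a subunit of the checkpoint complex that inhibits CDC20, had 4841 and 4706 in the HT-29/IFN-γ-labelled libraries, 1958 and 2029 in the MDA-MB-436-labelled libraries and 3380.0 and 3376 in MCF10A. Both were highest in the HT-29/IFN-γ-labelled libraries, and both rose there against the MDA-MB-436-labelled libraries, TTK by 2.76-fold (log2 fold change 1.47, SE 0.0487, adjusted p = 3.44e-08) and BUB1B by 2.39-fold (log2 fold change 1.26, SE 0.0317, adjusted p = 7.62e-09). BUB1, the kinase that brings checkpoint proteins to the kinetochore, averaged 4921 ± 143 in the HT-29/IFN-γ-labelled libraries, 2578 ± 121 in the MDA-MB-436-labelled libraries and 4893 ± 74.8 in MCF10A. Its HT-29/IFN-γ-labelled and MCF10A libraries overlapped.

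PLK1, the Polo kinase of mitotic entry and spindle assembly, had 4491 and 4386 in the HT-29/IFN-γ-labelled libraries, 5052 and 5140.4 in the MDA-MB-436-labelled libraries and 9294 and 9014 in MCF10A. It fell 2.06-fold in the HT-29/IFN-γ-labelled libraries against MCF10A (log2 fold change -1.04, SE 0.028, adjusted p = 1.58e-08), and with library-size scaling the value was -0.73, under the fold minimum. This call was also lost when limma tested against a fold of 2. BIRC5 (survivin), a subunit of the chromosomal passenger complex, had 3611 and 3584 in the HT-29/IFN-γ-labelled libraries, 2608 and 2546 in the MDA-MB-436-labelled libraries and 5985 and 5893 in MCF10A. It fell in the MDA-MB-436-labelled libraries against MCF10A (log2 fold change -1.20, SE 0.0277, adjusted p = 4.91e-09). AURKB, the kinase of that same complex, averaged 3220.4 ± 25.9 in the HT-29/IFN-γ-labelled libraries, 1723 ± 108 in the MDA-MB-436-labelled libraries and 3025 ± 86 in MCF10A. The spindle pole kinase AURKA averaged 4598 ± 51.4 in the HT-29/IFN-γ-labelled libraries, 5022 ± 37 in the MDA-MB-436-labelled libraries and 6671 ± 81.3 in MCF10A. By the deposited scaling neither Aurora kinase passed in any comparison.

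Of the centromere proteins, CENPF, a kinetochore protein, had 7553 and 8062 in the HT-29/IFN-γ-labelled libraries, 6112 and 5927 in the MDA-MB-436-labelled libraries and 12754 and 13035 in MCF10A, and it fell in the MDA-MB-436-labelled libraries against MCF10A (log2 fold change -1.10, SE 0.0357, adjusted p = 3.08e-08). CENPA, the histone H3 variant that marks centromeres, had 773 and 766 in the HT-29/IFN-γ-labelled libraries, 1544 and 1433 in the MDA-MB-436-labelled libraries and 1195 and 1172 in MCF10A. The order of its lines was unlike that of CENPF, with the MDA-MB-436-labelled libraries highest and the HT-29/IFN-γ-labelled libraries lowest. No difference reached the fold minimum by the deposited scaling with all libraries. The log2 fold change in the HT-29/IFN-γ-labelled against the MDA-MB-436-labelled libraries was -0.95, and -1.004 without the deeper MDA-MB-436-labelled library. CENPE, a kinetochore motor, averaged 1679 ± 92.1 in the HT-29/IFN-γ-labelled libraries, 1895 ± 115 in the MDA-MB-436-labelled libraries and 2940.4 ± 16.6 in MCF10A.

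KIF20A (MKLP2), a kinesin of the central spindle needed for cytokinesis, had the largest fold change of all members. It had 3443 and 3545 in the HT-29/IFN-γ-labelled libraries, 976 and 1017 in the MDA-MB-436-labelled libraries and 7443 and 7430.1 in MCF10A. The 3 lines did not overlap, with the MDA-MB-436-labelled libraries lowest. KIF20A fell 7.46-fold in them against MCF10A (log2 fold change -2.90, SE 0.0332, adjusted p = 1.94e-10) and 2.13-fold in the HT-29/IFN-γ-labelled libraries against MCF10A (log2 fold change -1.09, SE 0.0332, adjusted p = 3.02e-08), the second to -0.78 with library-size scaling. It rose in the HT-29/IFN-γ-labelled against the MDA-MB-436-labelled libraries (log2 fold change 1.81, SE 0.0332, adjusted p = 1.57e-09). KIF20A shares exonic bases with BRD8 and CDC23 on the opposite strand, which adds uncertainty to its counts.

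The other 6 kinesin and spindle genes passed in no comparison by the deposited scaling. KIF23 (MKLP1), which like KIF20A acts at the central spindle, had 2877 and 2782 in the HT-29/IFN-γ-labelled libraries, 3901 and 3814 in the MDA-MB-436-labelled libraries and 4379.9 and 4253 in MCF10A. Its log2 fold change in the MDA-MB-436-labelled libraries against MCF10A was -0.16, beside -2.90 for KIF20A. KIF4A and NUSAP1, a chromosome motor and a microtubule-bundling protein, were highest in the HT-29/IFN-γ-labelled libraries. KIF4A had 3510.2 and 3565 in the HT-29/IFN-γ-labelled libraries, 2519.8 and 2473 in the MDA-MB-436-labelled libraries and 2088 and 2094 in MCF10A. NUSAP1 had 9157 and 9208 in the HT-29/IFN-γ-labelled libraries, 5752 and 5686 in the MDA-MB-436-labelled libraries and 5322 and 5317 in MCF10A. These 2 genes and KIF2C, a microtubule depolymerase with a mean of 5568 ± 23.4 in the HT-29/IFN-γ-labelled libraries, 3999.7 ± 95.8 in the MDA-MB-436-labelled libraries and 3817 ± 12.2 in MCF10A, were lowest in MCF10A, KIF2C not with TMM scaling (-0.033 in the MDA-MB-436-labelled libraries against MCF10A). KIF11 (Eg5), which pushes spindle poles apart, and the spindle assembly factor TPX2 were highest in MCF10A, with log2 fold changes of -0.63 and -0.40 in the HT-29/IFN-γ-labelled libraries and -0.49 and -0.27 in the MDA-MB-436-labelled libraries against MCF10A.

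CDC20 and UBE2C serve the anaphase-promoting complex, CDC20 as its activator and UBE2C as its ubiquitin-conjugating enzyme. CDC20 had 7977 and 7569.5 in the HT-29/IFN-γ-labelled libraries, 2658 and 2733 in the MDA-MB-436-labelled libraries and 11724 and 11841 in MCF10A. The MDA-MB-436-labelled libraries lay far below the rest. CDC20 fell 4.37-fold in them against MCF10A (log2 fold change -2.13, SE 0.0321, adjusted p = 6.43e-10) and rose 2.88-fold in the HT-29/IFN-γ-labelled against the MDA-MB-436-labelled libraries (log2 fold change 1.53, SE 0.0321, adjusted p = 3.04e-09). UBE2C averaged 5521 ± 238 in the HT-29/IFN-γ-labelled libraries, 4404 ± 144 in the MDA-MB-436-labelled libraries and 6052 ± 15.5 in MCF10A and passed in no comparison. Per length UBE2C was the highest member in each line, at 258 ± 9.77 RPKM in the HT-29/IFN-γ-labelled libraries, 164 ± 4.29 in the MDA-MB-436-labelled libraries and 228 ± 1.1 in MCF10A. Both genes have processed pseudogenes, so their counts are uncertain to that extent.

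MKI67 and TOP2A are usual markers of proliferating cells, and by the deposited scaling neither was lowest in the MDA-MB-436-labelled libraries. MKI67, which encodes Ki-67, had 6009 and 6060.4 in the HT-29/IFN-γ-labelled libraries, 14939.6 and 14806 in the MDA-MB-436-labelled libraries and 14475 and 14504 in MCF10A. The MDA-MB-436-labelled and MCF10A libraries were close, at a log2 fold change of 0.038, and the HT-29/IFN-γ-labelled libraries were below both. MKI67 fell 2.4-fold in the HT-29/IFN-γ-labelled libraries against MCF10A (log2 fold change -1.26, SE 0.0213, adjusted p = 2.02e-09) and 2.46-fold against the MDA-MB-436-labelled libraries (log2 fold change -1.30, SE 0.0213, adjusted p = 9.2e-10). Both values came under the fold minimum with library-size scaling, at -0.95 and -0.97. TOP2A, the topoisomerase that untangles sister chromatids, averaged 11154 ± 185 in the HT-29/IFN-γ-labelled libraries, 13036 ± 272 in the MDA-MB-436-labelled libraries and 15526 ± 136 in MCF10A, with log2 fold changes of -0.48 and -0.25 against MCF10A. With library-size scaling TOP2A was lowest in the MDA-MB-436-labelled libraries, at log2 fold changes of 0.10 in the HT-29/IFN-γ-labelled against the MDA-MB-436-labelled libraries and -0.17 in the HT-29/IFN-γ-labelled libraries against MCF10A.

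**Figure D4:**
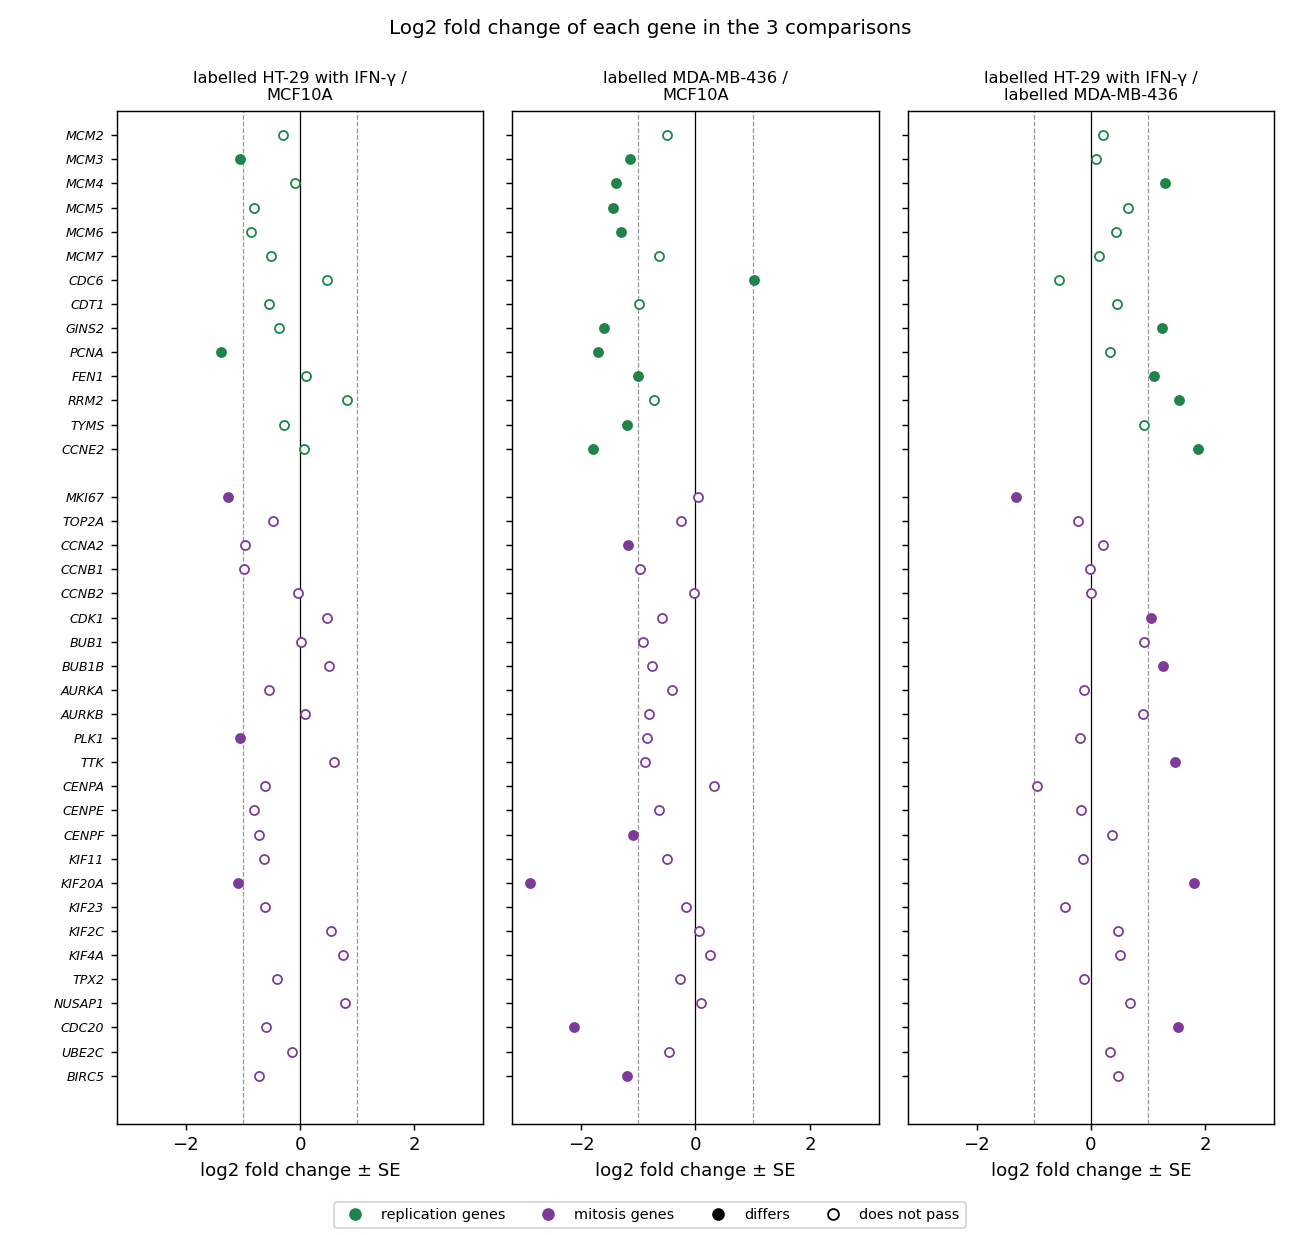
Log2 fold change with SE of each replication gene (green) and mitosis gene (purple) in the 3 comparisons, with filled points where the adjusted p was below 0.05 and the fold at least 2 (dashed lines); most SE bars are smaller than the points. KIF20A at -2.90 and CDC20 at -2.13 lie furthest left in the MDA-MB-436-labelled libraries against MCF10A, and CDC6 at 1.03 is the only filled point on the right there.

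By the adjusted p alone nearly every member passed, as did most genes. In the HT-29/IFN-γ-labelled libraries against MCF10A 9 members were higher and 26 lower, beside 46.3% and 39.2% of all genes, 85.5% in all. In the MDA-MB-436-labelled libraries against MCF10A 4 were higher and 32 lower, beside 42.5% and 41.8% of all genes, 84.3% in all. For the HT-29/IFN-γ-labelled against the MDA-MB-436-labelled libraries 27 were higher and 10 lower, beside 46.6% and 41.2% of all genes, 87.8% in all. Libraries of the groups did not overlap for 37, 38 and 37 of 39 members in these comparisons, beside 92.6%, 90.0% and 93.6% of all genes.

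No member passed between depths. In the deeper against the 25M libraries, with line as a block, limma called 0 of 39 members and 0 genes in all (0.00%), with 0 members and 284 genes at an unadjusted p under 0.05. On the recovered reads edgeR called 0 members and 1 gene, with 2 members and 619 genes at an unadjusted p under 0.05, and DESeq2 called 0 and 0, with 0 members and 46 genes. The members' log2 differences ran from -0.05 to 0.08, the highest in TYMS.

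Other replication genes, 48 in a list that shares no gene with the members, were also counted. In the MDA-MB-436-labelled libraries against MCF10A 23 of 48 fell and 0 rose (47.9% and 0%, beside 23.7% and 25.6% of all genes), with a median log2 fold change of -0.82. GINS4, a partner of GINS2, had 894 and 929 in the HT-29/IFN-γ-labelled libraries, 169 and 188 in the MDA-MB-436-labelled libraries and 1296 and 1275 in MCF10A, and it fell in the MDA-MB-436-labelled libraries against MCF10A (log2 fold change -2.84, SE 0.0677, adjusted p = 5.82e-09). RNASEH2A, the catalytic subunit of RNase H2, had 5616 and 5387 in the HT-29/IFN-γ-labelled libraries, 714 and 714 in the MDA-MB-436-labelled libraries and 3026 and 3057 in MCF10A, and it fell in the same comparison (log2 fold change -2.09, SE 0.0336, adjusted p = 8.5e-10). The HT-29/IFN-γ-labelled libraries had 3 of these genes higher and 4 lower than MCF10A (6.25% and 8.33%, beside 28.4% and 18.1% of all genes, median -0.23), led by the checkpoint mediator CLSPN (1.67) and the single-strand binding subunit RPA2 (1.25) among those that rose, and with the polymerase delta subunit POLD2 (-1.16) among those that fell. Against the MDA-MB-436-labelled libraries they had 18 higher and 2 lower (37.5% and 4.17%, beside 29.9% and 23.5% of all genes, median 0.84), with RNASEH2A (2.94) and CLSPN (2.46) the highest and ORC4, an origin recognition subunit (-1.21), among the lower.

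Other mitosis genes numbered 59. In the MDA-MB-436-labelled libraries against MCF10A 14 fell and 1 rose (23.7% and 1.69%), with a median log2 fold change of -0.58. Among all genes 23.7% fell and 25.6% rose, so the share that fell was that of all genes. PBK, a mitotic protein kinase, had 2328 and 2409 in the HT-29/IFN-γ-labelled libraries, 401 and 406 in the MDA-MB-436-labelled libraries and 6234 and 6104 in MCF10A, and it fell 15.2-fold (log2 fold change -3.93, SE 0.0356, adjusted p = 7.31e-11). CDCA2, which brings protein phosphatase 1 to chromatin, fell as well (-2.69). NDC80, the kinetochore protein that grips microtubules, had 1253 and 1278 in the HT-29/IFN-γ-labelled libraries, 3619 and 3607 in the MDA-MB-436-labelled libraries and 1504 and 1529.8 in MCF10A, and it was the gene that rose (log2 fold change 1.25, SE 0.0329, adjusted p = 9.87e-09). In the HT-29/IFN-γ-labelled libraries against MCF10A 2 rose, OIP5 (1.18) and STIL (1.04), which act in CENPA loading and centriole duplication, and 5 fell, led by CDCA2 (-1.76) and the kinetochore protein SKA3 (-1.40), with a median of -0.25. These were 3.39% and 8.47% of the list, beside 28.4% and 18.1% of all genes. Against the MDA-MB-436-labelled libraries 18 rose, led by PBK (2.55) and CDCA3 (1.84), and 2 fell, NDC80 (-1.51) and SKA3 (-1.06), with a median of 0.47. The share that rose was 30.5%, close to the 29.9% of all genes, and the share that fell was 3.39%, beside 23.5%.

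Regulators of these genes (E2F and DP factors, the RB family, MuvB subunits, MYB factors and FOXM1, 20 in all) moved both ways. RB1, the retinoblastoma protein that holds E2F factors in check, had 224 and 235 in the HT-29/IFN-γ-labelled libraries, 4930.4 and 4863 in the MDA-MB-436-labelled libraries and 4754 and 4891 in MCF10A. The HT-29/IFN-γ-labelled libraries were far below the other 4. RB1 fell there 20.9-fold against MCF10A (log2 fold change -4.39, SE 0.0394, adjusted p = 1.56e-10) and 21.3-fold against the MDA-MB-436-labelled libraries (log2 fold change -4.41). E2F1, an activator of replication genes, had 3455 and 3399.6 in the HT-29/IFN-γ-labelled libraries, 1052 and 1075 in the MDA-MB-436-labelled libraries and 1056 and 1066 in MCF10A. It rose in the HT-29/IFN-γ-labelled libraries against MCF10A (log2 fold change 1.69, SE 0.0352, adjusted p = 5.06e-09). In that comparison 4 regulators rose and 4 fell (20% each, beside 28.4% and 18.1% of all genes), with A-MYB (MYBL1, 1.60) next to E2F1 among the first and the DP factor TFDP2 (-1.31) next to RB1 among the second.

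In the MDA-MB-436-labelled libraries against MCF10A 2 regulators rose and 3 fell (10% and 15%, beside 25.6% and 23.7% of all genes). LIN54, the MuvB subunit that binds the CHR, had 979.6 and 1015 in the HT-29/IFN-γ-labelled libraries, 2421 and 2326 in the MDA-MB-436-labelled libraries and 717 and 675 in MCF10A, and it rose (log2 fold change 1.77, SE 0.0484, adjusted p = 1.22e-08). E2F8, a repressor, also rose (1.15), and the E2F partner TFDP1 fell (-1.05). Between the HT-29/IFN-γ-labelled and the MDA-MB-436-labelled libraries 6 rose and 5 fell (30% and 25%), close to the 29.9% and 23.5% of all genes. The activator E2F2 rose (1.91) with MYBL1 (5.24), and E2F4, the E2F of the DREAM complex, fell (-1.42) with RB1.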

How the data were processed

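Each deposited table gives, per the file headers, symbols with a normalised count (a signal scaled by 1 factor per library) and RPKM, in 23368 rows. The submitters' processing notes list FastQC, STAR 2.2.0, HTSeq and hg19, without roles. Annotation and strand were not given in the sources used here. Reads of overlapping genes and pseudogenes may therefore be shared. Beyond the pairs named above, CCNE2 overlaps INTS8, CCNA2 EXOSC9, PLK1 ERN2 and KIF4A PDZD11 on the opposite strand. FEN1 overlaps FADS2 on the same strand. Of the deposited normalised counts above 0, 100% were whole multiples of 1 step per library (tolerance 0.001), which recovered whole reads. On those reads edgeR called 4267 genes higher and 3098 lower in the HT-29/IFN-γ-labelled libraries against MCF10A, 3904 and 3868 in the MDA-MB-436-labelled libraries against MCF10A, and 4624 and 3781 in the HT-29/IFN-γ-labelled against the MDA-MB-436-labelled libraries. The authors' RPKM column was shifted against the symbols in 3546 rows, 5 members among them, and in case-insensitive order 0 rows were shifted. Date-like symbols (28 rows) and 4 repeated rows were dropped, leaving 23340.

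Samples were grouped by cell line label. limma 3.58.1 (R 4.3.3; trended, robust prior) took log2(normalised count + 1) of all 6 libraries, with 3 residual degrees of freedom, over 15638 genes that reached a normalised count of 10 in 2 or more libraries. On this scale the change of low genes is understated. Alternatives were edgeR 4.0.16, DESeq2 1.42.0 and limma-voom on the recovered reads, other scalings, filters and pseudocounts, thinned reads, and each library left out. The limma fit alone, and not edgeR, DESeq2 or voom, was tested on simulated data. There few genes differed and all lines shared the same base profile, unlike here, so the simulation does not vouch for these results. A member's value rested on 118 reads (CCNE2, 25M MDA-MB-436-labelled library) to 35944 reads (RRM2, deeper HT-29/IFN-γ-labelled library).

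Outside the members, named genes are KRT20, VIL1, VIM and, per list and comparison, the 2 that moved furthest each way among those that passed without overlap at 20 or more CPM in the higher line, except that a gene this rule picked is not reported here. The members and lists were chosen with earlier results of these data known. The median chi-square between the libraries of a line was 0.727 in the HT-29/IFN-γ-labelled libraries, 0.686 in the MDA-MB-436-labelled libraries and 0.553 in MCF10A, with 0.455 from sampling alone. Among the members it was 2.58 in the HT-29/IFN-γ-labelled libraries, 1.48 in the MDA-MB-436-labelled libraries and 0.438 in MCF10A. MCF10A was therefore also summed as 1 sample.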

Additional observations from a re-analysis of the deposited data

How the results depend on the processing

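With 2 libraries per line the SE rests on few libraries, and all counts depend on the fold minimum, not on the p. All results below are log2 fold changes or counts of members called. The count in the HT-29/IFN-γ-labelled libraries against MCF10A was 3 when tested against a fold of 2 and 35 by adjusted p alone. By adjusted p alone it was 36 in the MDA-MB-436-labelled libraries against MCF10A and 37 in the HT-29/IFN-γ-labelled against the MDA-MB-436-labelled libraries. Mitosis minus replication was -0.16 with thinned reads and -0.10 without CCNE2, CCNA2, TOP2A and MKI67 in the HT-29/IFN-γ-labelled libraries against MCF10A. It was 0.63 and 0.53 under these alternatives in the MDA-MB-436-labelled libraries against MCF10A, and -0.021 without the 4 genes in the HT-29/IFN-γ-labelled against the MDA-MB-436-labelled libraries. Leaving out 1 library at a time gave gaps of -0.25 to -0.14, 0.56 to 0.63 and -0.27 to -0.22 in these 3 comparisons, with 5 to 5, 14 to 15 and 11 to 12 members called. The cause was not tested.

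Some members near 0 changed sign. In the HT-29/IFN-γ-labelled libraries against MCF10A, TMM scaling gave FEN1 -0.021, CCNE2 -0.060, BUB1 -0.12 and AURKB -0.041, and library-size scaling gave MCM2 0.0095, MCM4 0.22, TYMS 0.031, CCNB2 0.28 and UBE2C 0.18. BUB1 was also -0.078 with edgeR, -0.077 with voom, -0.027 with thinned reads, -0.0013 with MCF10A summed as 1 sample, and -0.022 to 0.038 with 1 library left out, negative without the deeper HT-29/IFN-γ-labelled library (-0.022) or the 25M MCF10A library (-0.0077). In the MDA-MB-436-labelled libraries against MCF10A, MKI67 was -0.062 with TMM scaling, -0.024 with edgeR and -0.023 with voom, and KIF2C -0.033 with TMM scaling. In the HT-29/IFN-γ-labelled against the MDA-MB-436-labelled libraries, CCNB2 was -0.028 with TMM scaling, -0.026 with edgeR, -0.027 with voom, -0.013 with thinned reads, and -0.026 to 0.033 with 1 library left out, negative without the deeper HT-29/IFN-γ-labelled or the 25M MDA-MB-436-labelled library (-0.026 each). Library-size scaling there gave TOP2A 0.10, CCNB1 0.32, AURKA 0.20, PLK1 0.13, CENPE 0.15, KIF11 0.18 and TPX2 0.20. The cause was not tested.

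Depth labels (25M or deeper) were the only shared replicate numbers. Deviations of the 25M libraries from their line means correlated at 0.0276, -0.00282 and 0.00731 over 15638 genes. These values show no shift shared by number over all genes, but cannot show whether libraries were prepared or run together. With the replicate block the counts were 5, 15 and 11 and the gaps -0.20, 0.59 and -0.22, and it changed no call. For the deeper against the 25M libraries, leaving out each library in turn, an alternative chosen after seeing the data, called 0 to 0 members.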

Other observations

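Inhibitors of the cyclin-dependent kinases, 7 genes that restrain the cycle, also differed between the lines. CDKN2A, which encodes p16 and p14ARF, had 4781 and 4509.8 in the HT-29/IFN-γ-labelled libraries, 5410.1 and 5713 in the MDA-MB-436-labelled libraries and 0 and 1.47 in MCF10A normalised counts, the MCF10A values being 0 and 3 reads. CDKN2B, which encodes p15, had 548 and 503 in the HT-29/IFN-γ-labelled libraries, 3216 and 3241 in the MDA-MB-436-labelled libraries and 0 and 0 in MCF10A. Both genes were thus at or near 0 in MCF10A and present in the other 4 libraries. CDKN1A, which encodes the p53 target p21, had 1554 and 1562 in the HT-29/IFN-γ-labelled libraries, 4364 and 4623 in the MDA-MB-436-labelled libraries and 7745 and 7637 in MCF10A. It fell in the HT-29/IFN-γ-labelled libraries against MCF10A (log2 fold change -2.30, SE 0.0339, adjusted p = 1.07e-09, limma) and against the MDA-MB-436-labelled libraries (-1.53).

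CDKN2C, which encodes the CDK4 and CDK6 inhibitor p18, had 2685 and 2627 in the HT-29/IFN-γ-labelled libraries, 175 and 147 in the MDA-MB-436-labelled libraries and 822 and 835 in MCF10A. It rose in the HT-29/IFN-γ-labelled libraries against MCF10A (1.68) and fell in the MDA-MB-436-labelled libraries against MCF10A (-2.36). CDKN1C, which encodes p57, had 627 and 702 in the HT-29/IFN-γ-labelled libraries, 222 and 233 in the MDA-MB-436-labelled libraries and 743 and 691 in MCF10A, and it fell in the MDA-MB-436-labelled libraries against MCF10A (-1.65). Of the 7 inhibitors 4 rose and 1 fell in the HT-29/IFN-γ-labelled libraries against MCF10A, beside 28.4% and 18.1% of all genes, and 3 rose and 2 fell in the MDA-MB-436-labelled libraries against MCF10A, beside 25.6% and 23.7%.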
